A study of Mus musculus with 8 samples.

Results

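The CC chemokines are small secreted proteins that attract leukocytes, and 10 of their genes in the mouse are described here in kidney RNA: Ccl2, Ccl3, Ccl4, Ccl5, Ccl7, Ccl8, Ccl9, Ccl12, Ccl17 and Ccl28. They were taken by name from the annotation of a 1-colour Agilent mouse array, where each has 1 probe, and all 10 were among the 25127 genes and unnamed transcripts that could be tested. Tacrolimus, an immunosuppressant that inhibits calcineurin and can damage the kidney, was given to CD-1 mice, an outbred stock, at 1 mg/kg per day for 28 days (4 arrays). The comparison group of CD-1 mice received physiological serum (4 arrays). RNA came from the whole kidney, so that fewer cells of a type and less RNA per cell cannot be told apart. The labels number the samples within a group and name no animals, so that a p-value here reflects the spread among samples, which may be technical. The labels used here give neither age nor sex of the mice.

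CC chemokines bind G protein-coupled receptors of the CCR family on the surface of leukocytes and guide these cells along a gradient. Ligands of CCR2 draw monocytes out of the bone marrow and the blood, ligands of CCR1 act on macrophages and T cells, and ligands of CCR4 and CCR8 act mainly on T cell subsets. In the kidney, tubule cells, endothelium and resident macrophages can all make CC chemokines, and Ccl2 is widely used as a marker of renal inflammation.

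In the array annotation, which uses the mm9 assembly, 8 of the 10 probes lie on chromosome 11 in 2 stretches. The first stretch holds Ccl2 (81850650 to 81850709), Ccl7 (81860656 to 81860715), Ccl12 (81916764 to 81916823) and Ccl8 (81930108 to 81930167). The second holds Ccl5 (83339296 to 83339355), Ccl9 (83388223 to 83388282), Ccl3 (83461358 to 83461417) and Ccl4 (83478052 to 83478111). The probe of Ccl17 lies on chromosome 8 (97335770 to 97335829), and that of Ccl28 is placed on the unlocalised part of chromosome 13 (362589 to 362648). Exon annotation of this assembly was not used here. Genes of the first stretch arose by duplication and their proteins are alike, so that the first 30 of the 60 bases of their probes are shown, from the 5′ end and in the sense of the transcript, to let the 4 be compared:
Ccl2: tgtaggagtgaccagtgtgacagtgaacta
Ccl7: ttctgagaactgttgatgaaatgtgttgat
Ccl12: cctgaagttccccacgggcagtgtgatatt
Ccl8: accagaagtctcaaattctgcagccttgaa
Over the 45 pairs that the 10 whole probes form, the longest run of bases shared by a pair was 9, and the best ungapped placement of a probe on another matched 26 of 60 bases. Hybridisation with other transcripts was not examined.

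The level of a probe is its log2 signal minus the log2 of the 75th percentile of all non-control spots on that array. Each difference is the tacrolimus mean minus the control mean. Levels of different probes cannot be set against each other. The share of spots well above background was 64.0% to 69.8% per array. The count of saturated spots was 0, and the 75th percentile ranged over 674 to 1061 intensity units. The median local background was 22 units on every control array and 19 to 20.5 on the tacrolimus arrays, and its effect on dim signals was not tested. All 8 arrays lay on 1 slide and share 1 scan time, with the groups in different rows of the slide, so that row and treatment cannot be told apart. Of the kidney epithelium markers, 10 of 10 were well above background on every array, and 3 of the 10 fitted differences were above 0. The calcium-binding protein Calb1 of the distal tubule differed by 1.24 (adjusted p = 0.0552, limma) with separate groups, while the median over the list was -0.12. The markers' mean difference from the control level lay between -0.04 and 0.10 on the tacrolimus arrays and between -0.10 and 0.14 on the control arrays. It used the brightest probe of each gene. For the marker Lrp2 that probe differed by -0.05, while its other probes differed by -0.62 and -0.21, so that the size depends on the probe.

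Ccl2, which attracts monocytes, and Ccl8, from the same stretch of chromosome 11, rose under tacrolimus, 8.70-fold and 18.4-fold. Of the 10 fitted differences 9 were above 0 (39.5% of all genes tested were). Ccl2 and Ccl8 were called at an adjusted p under 0.05 in limma with Benjamini-Hochberg adjustment over all genes tested, and none of the 10 was called lower. Under 19 other settings Ccl2 lost its call in 11 and Ccl8 in 7. Of all genes tested 0.227% were called in either direction, 0.187% being higher and 0.0398% lower. With no adjustment, 7 of the 10 were higher at p under 0.05 and 0 were lower, against 7.04% and 8.42% of all genes tested. In 6 of the 10 every tacrolimus array lay above every control array, against 4.35% of all genes tested (10.1% were separate in either direction). Ccl7 is among both the 7 and the 6, though it was well above background on all 4 tacrolimus arrays and only 1 control array. The median difference was 1.99 over the 10 genes and -0.05 over all genes tested.

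**Figure D1:**
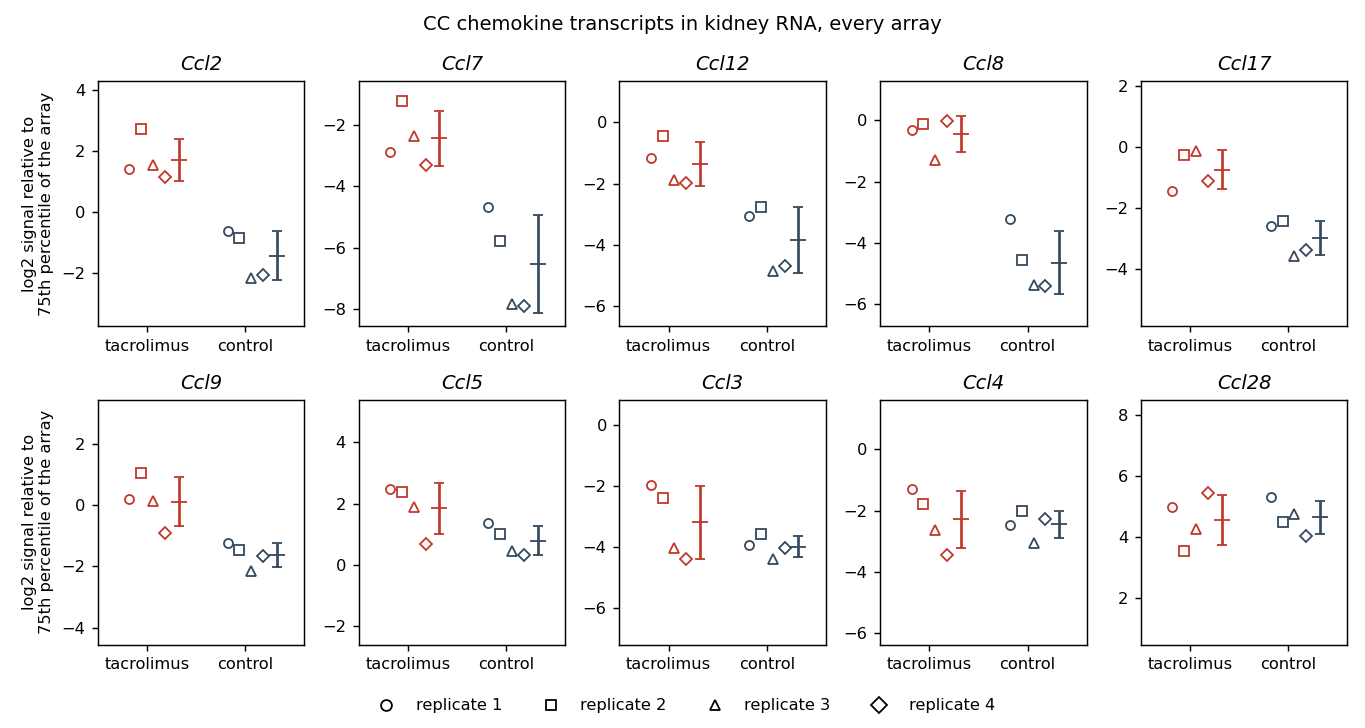
Levels of the 10 CC chemokine transcripts on the 4 tacrolimus arrays (red, left) and the 4 control arrays (dark, right); the y axis is the log2 signal relative to the 75th percentile of the array and spans 8 log2 units in every panel. Symbols mark the replicate number and bars the mean ± SD of 4 arrays; the groups are separate for Ccl2, Ccl7, Ccl12, Ccl8, Ccl17 and Ccl9 and overlap for Ccl5, Ccl3, Ccl4 and Ccl28.

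The ligands of CCR2 and their neighbours come first. Ccl2, also known as monocyte chemoattractant protein 1, had levels of 1.42, 2.71, 1.52 and 1.14 on tacrolimus arrays 1 to 4, against -0.62, -0.85, -2.16 and -2.06 on control arrays 1 to 4. Every tacrolimus array was above every control array, with a gap of 1.76 between the nearest 2. The means were 1.70 ± 0.69 under tacrolimus and -1.42 ± 0.80 in control (SD, n = 4 each), an 8.70-fold difference (adjusted p = 0.0470, limma). The array carries 10 spots of this 1 probe, and their SD within an array was 0.05 to 0.16, so that the spread between arrays is larger than that between spots. Ccl2 lost its call with quantile normalization (adjusted p = 0.0550), with every probe tested on its own (0.0585) and with no filter on dim probes (0.0776). It also lost it without each array other than control replicate 1 (adjusted p from 0.0489 to 0.125 over the 8 fits, where the difference lay between 2.78 and 3.39).

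Ccl8 is known in the mouse as a ligand of CCR8. It had levels of -0.33, -0.12, -1.30 and -0.02 on tacrolimus arrays 1 to 4, against -3.22, -4.57, -5.37 and -5.41 on control arrays 1 to 4. Tacrolimus replicates 1, 2 and 4 lay close together and replicate 3 lower, and control replicate 1 stood above the other controls. The means were -0.44 ± 0.59 under tacrolimus and -4.64 ± 1.02 in control (SD, n = 4 each), an 18.4-fold difference (adjusted p = 0.0291, limma). The control signal of Ccl8 was well above background on all 4 arrays but dim, at 19.2 to 113 intensity units against 274 to 854 on the tacrolimus arrays before scaling. With normexp background correction, which adds an offset to every signal, the difference was 2.78 in place of 4.20 (adjusted p = 0.00422). The call held without tacrolimus replicate 3 or control replicate 1 and was lost without each of the other 6 arrays in turn, where the adjusted p lay between 0.0610 and 0.0992 and the difference between 3.95 and 4.22.

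Ccl7 and Ccl12 encode further monocyte attractants that act through CCR2. Ccl7 had levels of -2.87, -1.21, -2.36 and -3.29 on tacrolimus arrays 1 to 4, against -4.66, -5.79, -7.85 and -7.90 on control arrays 1 to 4. The groups did not overlap, but only 1 of the 4 control arrays was well above background for Ccl7, so that the fitted 17.3-fold difference depends on how dim signals are treated. The fitted difference was 4.12 ± 0.78 (SE) and did not pass (adjusted p = 0.0692, limma), while it was 1.58 with normexp (adjusted p = 0.0316) and 2.12 in the deposited value table (adjusted p = 0.0480), where it passed. Ccl12 had levels of -1.15, -0.44, -1.89 and -1.97 on tacrolimus arrays 1 to 4, against -3.07, -2.77, -4.86 and -4.70 on control arrays 1 to 4. These too were separate groups, by 0.79 between the nearest 2 arrays. The fitted difference of Ccl12 was 2.48 ± 0.55 (SE; adjusted p = 0.0993, limma), and it was 1.61 with normexp, where it passed (adjusted p = 0.0444).

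Ccl17 is a ligand of CCR4, made mainly by dendritic cells and macrophages. Its levels were -1.43, -0.26, -0.14 and -1.12 on tacrolimus arrays 1 to 4, against -2.59, -2.43, -3.56 and -3.35 on control arrays 1 to 4. No control array reached the lowest tacrolimus array, and the nearest 2 were 1.00 apart. The difference was 2.25 ± 0.36 (SE), or 4.74-fold, and did not pass (adjusted p = 0.0552, limma). It passed under 5 of 19 other settings, among them normexp (1.75, adjusted p = 0.0260) and an intensity trend with robust estimation (adjusted p = 0.0336).

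The second stretch of chromosome 11 holds ligands that act on macrophages and T cells. Ccl9, known from rodents as a ligand of CCR1, had levels of 0.19, 1.06, 0.12 and -0.91 on tacrolimus arrays 1 to 4, against -1.23, -1.47, -2.17 and -1.66 on control arrays 1 to 4. Tacrolimus replicate 4 was the nearest to the controls, 0.31 above the highest of them. The difference of Ccl9 was 1.74 ± 0.39 (SE; adjusted p = 0.0980, limma), and it passed only with array weights (1.92, adjusted p = 0.0420).

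Ccl5, or RANTES, which acts on T cells and macrophages, had levels of 2.47, 2.39, 1.88 and 0.67 on tacrolimus arrays 1 to 4, against 1.36, 1.01, 0.45 and 0.33 on control arrays 1 to 4. Here tacrolimus replicate 4 lay among the controls and the other 3 lay above all of them. The difference of Ccl5 was 1.06 ± 0.41 (SE; unadjusted p = 0.0312, adjusted p = 0.280, limma).

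Ccl3 and Ccl4, the macrophage inflammatory proteins 1 alpha and beta, showed another pattern. Ccl3 had levels of -1.96, -2.38, -4.02 and -4.38 on tacrolimus arrays 1 to 4, against -3.91, -3.57, -4.39 and -4.03 on control arrays 1 to 4. Tacrolimus replicates 1 and 2 were above every control, and replicates 3 and 4 were within the control range. Ccl4 had levels of -1.30, -1.80, -2.62 and -3.45 on tacrolimus arrays 1 to 4, against -2.46, -2.02, -3.05 and -2.26 on control arrays 1 to 4. Its tacrolimus arrays spread from above the highest control to below the lowest. The differences were 0.79 ± 0.53 for Ccl3 (SE; adjusted p = 0.484) and 0.15 ± 0.45 for Ccl4 (adjusted p = 0.895, limma), and that of Ccl4 changed sign without tacrolimus replicate 1 or 2 or control replicate 3.

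Ccl28 is a ligand of CCR10 and CCR3 that is made by mucosal epithelia. Its levels were 4.998, 3.56, 4.25 and 5.43 on tacrolimus arrays 1 to 4, against 5.33, 4.50, 4.74 and 4.04 on control arrays 1 to 4. The whole control range lay inside the tacrolimus range. The difference of Ccl28 was -0.09 ± 0.42 (SE; adjusted p = 0.936, limma), and its sign changed without tacrolimus replicate 2 or 3 or control replicate 1.

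**Figure D2:**
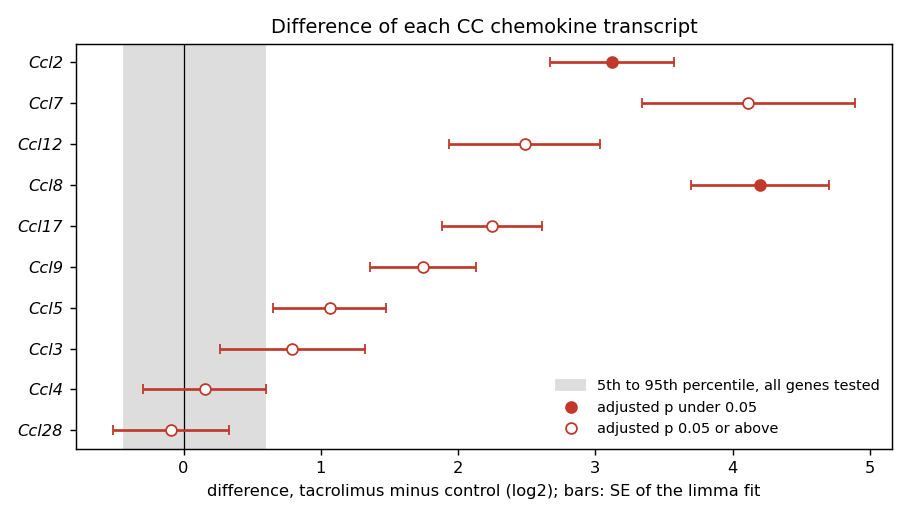
Difference of each CC chemokine transcript, tacrolimus minus control, in log2 units with the SE of the fit; filled points have an adjusted p under 0.05. The grey band is the range from the 5th to the 95th percentile of all genes tested (-0.44 to 0.59); the differences of Ccl4 and Ccl28 lie inside it and the other 8 above it.

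By place, the 4 described genes of the first stretch differed by 2.48 to 4.20, and all 4 had separate groups. In the RefSeq gene order 2 more CC chemokines belong to that run, Ccl11 with a difference of 0.98 and Ccl1 with 0.21 by its brightest probe, and the groups of both overlapped. Another Ccl1 probe, well above background on 3 tacrolimus arrays and 1 control array, differed by 2.57 (unadjusted p = 0.0134, adjusted p = 0.239, limma). The difference of Ccl1 thus depends on the probe. The 4 described genes of the second stretch differed by 0.15 to 1.74, and 1 of them, Ccl9, had separate groups. Ccl6, which lies between Ccl9 and Ccl3, differed by 1.46 and also had separate groups. Both stretches thus held genes with separate and with overlapping groups. Over all genes tested 4.35% were separate with tacrolimus higher and 10.1% in either direction. The stretches were compared after their values were seen, and there is no test.

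Arrays that were high for one of these genes tended to be high for others. In 8 of the 10 genes control replicates 1 and 2 were both above control replicates 3 and 4, the exceptions being Ccl4 and Ccl28. Among genes outside the 10, this order also held for Ccr2, Mrc1 and C1qa but not for Calb1 or Il33. Its share over all genes tested was not counted. Tacrolimus replicate 4 was the lowest tacrolimus array in 7 of the 10, and tacrolimus replicate 2 was the highest in 4. In 5 of the 10, Ccl3, Ccl4, Ccl5, Ccl9 and Ccl12, tacrolimus replicates 1 and 2 were both above replicates 3 and 4. With each group's mean taken out, the correlation over the 8 arrays was 0.96 between Ccl2 and Ccl7, 0.93 between Ccl2 and Ccl12 and 0.95 between Ccl3 and Ccl4. It was 0.45 between Ccl2 and Ccl4 and 0.10 between Ccl8 and Ccl4. Of Ccl28 with the other 9 genes it was between -0.60 and 0.49. These values describe 8 arrays that each gene shares with the rest, and 45 pairs were computed.

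**Figure D3:**
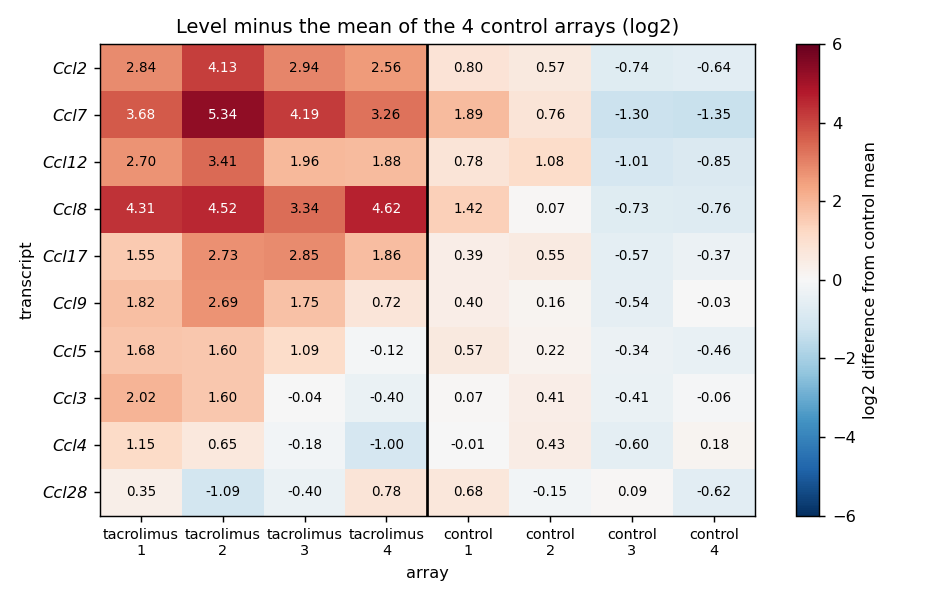
Level of each CC chemokine transcript on each array minus the mean of the 4 control arrays, in log2 units (colour and printed value), with tacrolimus arrays left of the line and control arrays right of it. Ccl8 is between 3.34 and 4.62 on all 4 tacrolimus arrays, while Ccl3 and Ccl4 are above 0 on tacrolimus arrays 1 and 2 and below 0 on 3 and 4.

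The named genes whose levels followed Ccl2 most closely over the 8 arrays were Defb36, a beta-defensin, C3, the central complement component, Vcam1, an adhesion molecule for leukocytes, Birc5, which encodes survivin, and Adam8, a metalloprotease. Pearson's r was 0.997 for Defb36, 0.991 for C3, 0.989 for Vcam1, 0.989 for Birc5 and 0.988 for Adam8. Those closest to Ccl8 were Tcaf2, Fignl1, Dtl, Birc5 and Col17a1, with r between 0.980 and 0.996. Such values are carried in part by the difference between the groups. With each group's mean taken out they were between 0.920 and 0.981 for the genes closest to Ccl2 and between 0.831 and 0.975 for those closest to Ccl8, still after a choice among all genes tested.

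Promoter sequence was at hand for 6 of the 10 genes, from RefSeq on the GRCm38.p6 build. The 250 bases before the start are shown for Ccl12, Ccl8, Ccl17 and Ccl9, the 4 of these 6 whose groups did not overlap, so that their regulatory sequence can be read beside the levels given above. They are written 5′ to 3′ on the strand of the gene, and capitals mark matches to the motifs named after them. The windows are chr11:82101595-82101844 for Ccl12, chr11:82114935-82115184 for Ccl8 and chr8:94810203-94810452 for Ccl17, all on the plus strand, and chr11:83578637-83578886 for Ccl9 on the minus strand.
Ccl12: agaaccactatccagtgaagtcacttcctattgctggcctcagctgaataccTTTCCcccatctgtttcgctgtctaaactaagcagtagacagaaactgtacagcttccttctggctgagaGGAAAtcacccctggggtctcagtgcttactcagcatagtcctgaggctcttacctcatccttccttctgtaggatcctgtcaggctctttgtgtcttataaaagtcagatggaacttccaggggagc
Ccl8: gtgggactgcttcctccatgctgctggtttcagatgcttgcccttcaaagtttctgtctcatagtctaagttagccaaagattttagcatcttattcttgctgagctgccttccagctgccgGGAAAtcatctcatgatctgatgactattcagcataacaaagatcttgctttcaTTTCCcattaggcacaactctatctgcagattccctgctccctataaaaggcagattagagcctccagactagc
Ccl17: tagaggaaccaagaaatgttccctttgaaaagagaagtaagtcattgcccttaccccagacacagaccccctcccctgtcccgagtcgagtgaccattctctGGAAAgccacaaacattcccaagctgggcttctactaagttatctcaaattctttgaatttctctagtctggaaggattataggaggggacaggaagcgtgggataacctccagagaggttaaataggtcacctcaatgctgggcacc
Ccl9: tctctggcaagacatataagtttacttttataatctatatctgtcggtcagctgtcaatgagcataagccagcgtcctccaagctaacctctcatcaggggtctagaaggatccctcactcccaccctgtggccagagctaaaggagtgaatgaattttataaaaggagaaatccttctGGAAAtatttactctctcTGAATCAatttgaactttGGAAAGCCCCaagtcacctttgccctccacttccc
Both strands of the whole windows of 300 bases, which reach 50 bases past the start, were searched for GGAAA (the core of NFAT sites, NFAT being the factor that calcineurin activates), TGANTCA (AP-1), 2 forms of the NF-kB site (GGG and, after any 2 bases, TTTCC or TTCCC) and the interferon-stimulated response element (GAAA, any 2 bases, GAAA). GGAAA was found in all 6 windows and in 61.3% of the 32851 promoter windows of the table. TGANTCA was found in the windows of Ccl9 and Ccl28, and in 7.81% of all windows. The NF-kB form ending in TTTCC was found in that of Ccl9 only, where its minus-strand match overlaps a match to GGAAA, and in 1.63% of all windows. The NF-kB form ending in TTCCC, which occurs in 1.75% of all windows, and the interferon element, which occurs in 3.44%, had no match in the 6. The windows of the neighbours Ccl12 and Ccl8 were the most alike of the 15 pairs, with 177 of 300 bases identical in a global alignment (59.0%, against 46.3% to 56.0% in the other pairs), and both carry GGAAA 128 bases before the start.

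Of the other CC chemokines, 7 of 13 listed genes could be tested and none passed in either direction (limma). With no adjustment 3 were higher and 1 was lower at p under 0.05. Ccl6, a neighbour of Ccl9 and a ligand of CCR1 in the mouse, had levels of 0.74, 1.68, 1.06 and 0.21 on tacrolimus arrays 1 to 4, against -0.51, -0.30, -0.74 and -0.61 on control arrays 1 to 4. All tacrolimus arrays were above all control arrays, and the difference was 1.46 ± 0.28 (SE; adjusted p = 0.0704, limma). The eosinophil attractants Ccl24 and Ccl11 differed by 1.70 (adjusted p = 0.193) and 0.98 (adjusted p = 0.217), from control signals that were well above background on 2 and 1 of the 4 arrays. Ccl25, which guides T cells to the gut, differed by -0.53 (adjusted p = 0.261). Ccl22, another ligand of CCR4, and Ccl20 stayed near background on all 8 arrays. The median difference of the 7 was 0.23, against -0.05 over all genes tested.

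Among the CC receptors, 9 of 12 were tested and none passed (limma). With no adjustment 2 were higher at p under 0.05 and 0 were lower, and the median difference was 0.08. Ccr2, the receptor of the monocyte attractants Ccl2, Ccl7 and Ccl12, was among those higher. It had levels of -0.03, 0.05, -0.56 and -0.32 on tacrolimus arrays 1 to 4, against -1.25, -1.15, -2.34 and -2.04 on control arrays 1 to 4. Every tacrolimus array of Ccr2 was above every control array, and the difference was 1.48 ± 0.28 (SE, adjusted p = 0.0704, limma). Of the receptors of the other ligands, Ccr8 differed by -0.32 (adjusted p = 0.521, between -0.44 and 0.01 over 19 other settings), Ccr10 by 0.08 (0.758) and Ccr3 by -0.12 (0.761). Ccr4, the receptor of Ccl17, and Ccr1 stayed near background on all 8 arrays. Ccr7, which guides dendritic cells and T cells to lymph nodes, differed by 0.58 (adjusted p = 0.385). The atypical receptors Ackr1, Ackr2 and Ackr3, which bind chemokines without the usual signal, differed by -0.26, -0.27 and -0.18, and none passed (adjusted p from 0.605 to 0.717, limma, with 0 of 3 at an unadjusted p under 0.05).

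**Figure D4:**
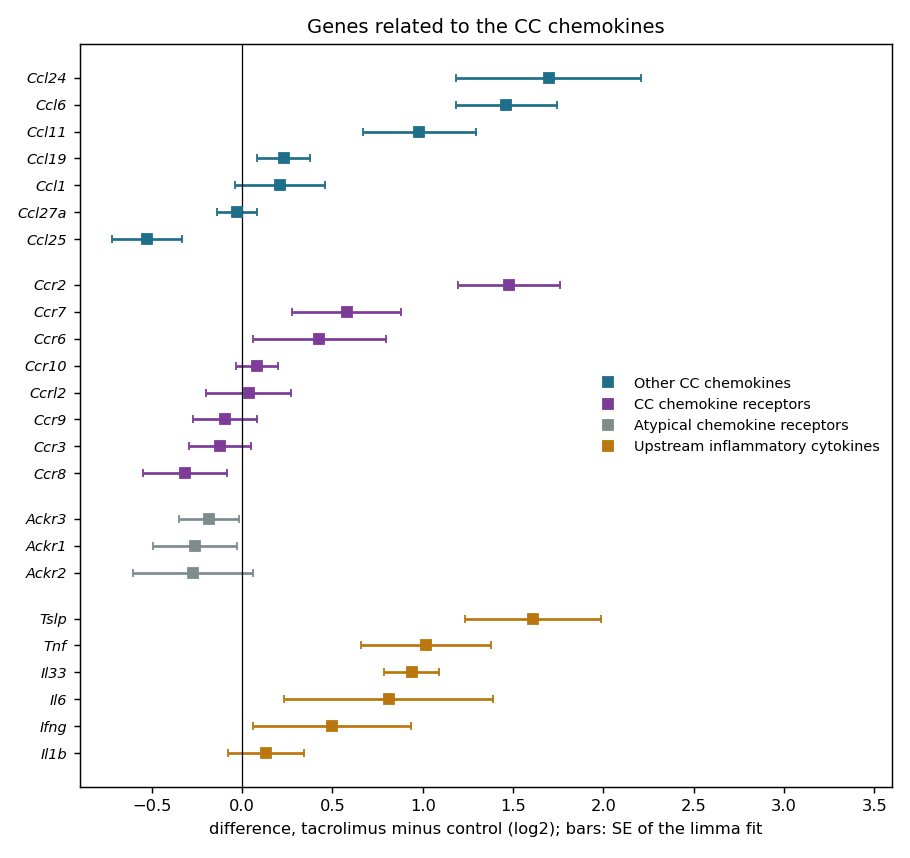
Differences, tacrolimus minus control, in log2 units with the SE of the fit, for tested genes among other CC chemokines, CC receptors, atypical receptors and inflammatory cytokines. Ccr2 lies at 1.48 and the other receptors shown between -0.32 and 0.58, and no gene shown passed at an adjusted p under 0.05.

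Cytokines known to induce CC chemokines gave 6 tested genes of 10, none of which passed (limma). With no adjustment 3 were higher and 0 lower at p under 0.05, and the median difference was 0.87. Il33, an alarmin of epithelium and stroma, differed by 0.94 ± 0.15 (SE, adjusted p = 0.0552) and Tnf by 1.02 ± 0.36 (adjusted p = 0.251, limma). Tslp, an epithelial cytokine that induces Ccl17 in dendritic cells, was well above background on 4 of 4 tacrolimus arrays and 0 of 4 control arrays. It could thus be tested through its tacrolimus arrays alone, and its fitted difference had an adjusted p of 0.112 (limma). With the scaling used here its tacrolimus mean was 2.17-fold above a floor for the control arrays. That floor is the lowest signal well above background on each control array, or the probe's own signal where higher. It is no lower limit for other processing, since the fitted difference lay between 0.36 and 1.85 log2 units over 18 other settings. Il6 differed by 0.81 (adjusted p = 0.513), and Il4, Il13, Il10 and Il1a did not reach the 4 arrays well above background needed for a test.

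Markers of leukocytes and of other tissue also differed between the arrays, and their part in these differences was not tested. Of 18 monocyte and macrophage markers 17 were tested and none passed (limma). With no adjustment 14 were higher and 1 was lower at p under 0.05, and the median difference was 1.32. Their summed level, in units of the 75th percentile, was 85.2 to 113 on the tacrolimus arrays and 78.1 to 90.8 on the control arrays, and their mean difference from the control level was 0.74 to 1.43 on tacrolimus and -0.27 to 0.42 on control arrays. The mannose receptor Mrc1 differed by 1.88 ± 0.31 (SE, adjusted p = 0.0552, limma). As measured by its brightest probe Itgam, the integrin chain CD11b, differed by -0.44 ± 0.08 (adjusted p = 0.0584, limma). The other 2 Itgam probes well above background differed by -0.34 and 0.13, so that the direction depends on the probe. Of 7 dendritic cell markers 6 were tested, 2 of them higher and 1 lower by the same threshold, with a median of 0.25. The lower one was Flt3, at -0.94 by its brightest probe and 1.13 by another probe well above background on every array, so that its direction depends on the probe. The summed level was 122 to 161 on tacrolimus arrays and 124 to 151 on control arrays, but 98.2% of it came from 1 probe, that of Siglech. Of 12 T and natural killer cell markers all were tested, with 3 higher and 0 lower, a median of 0.48 and sums of 8.83 to 13.3 (tacrolimus) and 10.99 to 14.5 (control). Of 7 neutrophil markers all were tested, with 0 higher and 1 lower, a median of -0.47 and sums of 105 to 141 (tacrolimus) and 123 to 131 (control), of which the 1 probe of Csf3r gave 90.4%. In the same way Itgam gave 39.1% of the monocyte and macrophage sum and Cd4 gave 51.4% of the T and natural killer cell sum. Csf1r, another bright probe in the monocyte and macrophage sum (levels 4.96 on tacrolimus and 4.90 on control arrays), differed by 0.06. The sums thus weigh the brightest probes most. Of 5 B cell markers tested 0 were under that threshold, and the median was -0.01. Of 8 mast cell and eosinophil markers 3 were tested, all 3 with a fitted difference above 0 and with a median of 0.23. Prg2, the eosinophil major basic protein, differed by 1.45 (unadjusted p = 0.0365, adjusted p = 0.294, limma). It was well above background on 3 of 4 tacrolimus and 1 of 4 control arrays. Cpa3, Mcpt4, Fcer1a, Siglecf and Epx did not reach the 4 arrays needed for a test. Of these, 1 Siglecf probe was well above background on 3 tacrolimus and 0 control arrays, and Mcpt4 on 2 and 0. Of 4 platelet markers Pf4, itself a CXC chemokine, differed by 1.11 (adjusted p = 0.222, limma), Ppbp by 0.05, Itga2b by -0.25 and Gp9 by -0.40, with a median of -0.10. No gene of these lists passed (limma); of the 100 genes tested over all lists outside the 10 chemokines, 39 were under an unadjusted p of 0.05, against 15.5% of all genes tested.

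The arrays also differed in fat and urothelium markers. The mean difference of 6 adipocyte markers from the control level was 2.93, 2.09, 2.20 and 5.38 on tacrolimus arrays 1 to 4, and -0.47, 2.19, -0.84 and -0.88 on control arrays 1 to 4. That of 5 urothelium markers was 2.15, -0.82, -0.33 and 3.41 on tacrolimus arrays 1 to 4, and -0.46, -0.04, 0.26 and 0.24 on control arrays 1 to 4. Of the adipocyte markers, Plin1 was well above background on 4 tacrolimus and 0 control arrays, so that it was tested through its tacrolimus arrays alone. Adipoq was so on 1 control array and Cidec on 2. Cfd and Fabp4, well above background on every array, differed by 4.66 and 0.23. The adipocyte values thus rest in part on dim control signals. Tacrolimus replicate 4, the highest for both marker lists, was the lowest tacrolimus array for Ccl2, Ccl7, Ccl12, Ccl9, Ccl5, Ccl3 and Ccl4. For Ccl8 and Ccl28 this array was the highest, and for Ccl17 neither. Without this array and control replicate 2 the differences were 3.498 for Ccl2 and 4.08 for Ccl8, and neither was called (adjusted p = 0.123 for both, limma, with 3 arrays against 3).

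**Figure D5:**
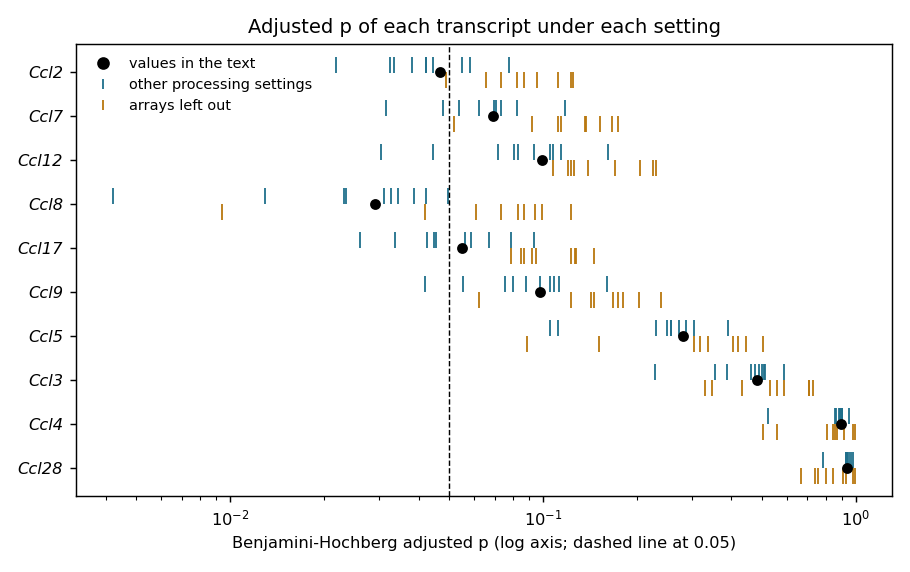
Adjusted p of each CC chemokine transcript (log axis, limma) for the values in the text (black), under other processing settings (blue) and with arrays left out (orange); the dashed line is at 0.05. Ccl8 lies left of the line under every blue setting, Ccl2 and Ccl17 have marks on both sides, and Ccl5, Ccl3, Ccl4 and Ccl28 lie right of it throughout.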

How the data were processed

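Kidney RNA of 8 samples was hybridised to 1-colour arrays. Per the file headers, Agilent Feature Extraction 10.7.3.1 gave the deposited intensity of each spot, with a spatial detrending surface subtracted and multiplicative detrending. The log2 values of the deposited table equal, to within 5e-09, the quantile-normalized raw median intensity without background subtraction. Per the submitters' processing notes the authors used limma, with settings not given in the sources used here.

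Processed intensities were taken as log2 minus the array's 75th percentile over 59305 non-control spots. Outlier spots (147 to 194 per array) were left out, and spots of a probe were averaged. Of 55681 probes, 36493 were well above background on at least 4 of 8 arrays and were tested, and the probe with the highest mean stood for a gene. Symbols came from a RefSeq table of GRCm38.p6 that matched 28026 probes. The test was limma's (version 3.58.1, R 4.3.3), two-sided, with Benjamini-Hochberg adjustment. On simulated arrays of this comparison with 25127 genes, 70% of 100 changes of 1 and 95% of 100 changes of 2 log2 units were recovered, with 7 of 172 calls false. The noise was drawn independently for each gene and array, and the changed genes were picked at random. These rates need not hold for the genes described, whose SD reached 1.60 (Ccl7, control arrays). Ccl7, Ccl12 and Ccl17 differed by more than 2 and were not called. Promoters were aligned with Biopython 1.88. With 4 arrays per group, their number limits the precision.

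The 10 genes, the lists and the tests were chosen with earlier results of these data known. All 10 are described; in other lists up to 4 tested genes with the lowest p and selected receptors are named (a receptor that the counts include is not reported here), and for Ccl2 and Ccl8 the 5 named genes most alike.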

Additional observations from a re-analysis of the deposited data

Results flagged for a closer look

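In 2 of the 48 sets of 4 arrays examined, 1 array stood far from the other 3, where chance gives about 1 in 20. For neutrophil markers, control replicate 4 had a mean difference from the control level of -0.38, against 0.10 to 0.15 on the other control arrays (gap over range 0.896). For adipocyte markers, control replicate 2 had 2.19, against -0.88 to -0.47 on the other control arrays (gap over range 0.866). None of the 10 chemokines had such an array in either group.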

How the results depend on the processing

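Of the 10 genes, 2 were called in the values above. The number was 1 (Ccl8) with quantile normalization, no filter on dim probes or every probe on its own, 3 with an intensity trend or a filter on all 8 arrays, 4 with array weights or the deposited table, and 5 with normexp. It was 0 to 2 when 1 array was left out, and 0 without tacrolimus replicate 4 and control replicate 2 together, a setting chosen after seeing the data. The cause of these changes was not tested, and leaving out arrays leaves fewer samples. The direction held under all 19 alternatives (18 for Ccl7, which the filter on all 8 arrays removes) except for Ccl4, which differed by -0.18, -0.01 and -0.05 without tacrolimus replicate 1, tacrolimus replicate 2 and control replicate 3, and Ccl28, which differed by 0.24, 0.01 and 0.13 without tacrolimus replicate 2, tacrolimus replicate 3 and control replicate 1. With 1 array left out the range was -0.18 to 0.54 for Ccl4 and -0.38 to 0.24 for Ccl28.

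Over all genes tested 57 were called, 285 with normexp, 180 with the deposited table, 32 with no filter, 151 with the filter on all 8 arrays, 37 with every probe, 221 with an intensity trend, 309 with array weights, and 7 to 56 when 1 array was left out (8 without the pair). Of the 100 genes of the other lists 0 were called, 12 with normexp, 5 with the deposited table, 4 with the filter on all 8 arrays, 1 with the mean of a gene's probes, 7 with an intensity trend, 10 with array weights, 0 to 2 when 1 array was left out and 2 without the pair.

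With the replicate number as a block, 3 of the 10 genes, 103 of all genes and 9 of the list genes were called. Ccl12 passed there (adjusted p = 0.0303). Deviations from the group means of same-numbered samples correlated at 0.156, 0.0207, 0.143 and 0.0552. For each control replicate this was the highest of its 4 values, and pairs of unlike number lay between -0.153 and 0.0553. Whether same-numbered samples share more than a number was not tested. Of the tacrolimus replicates, replicate 2 correlated best with a control of another number, replicate 1 (0.0553).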
